A study of Homo sapiens with 3 samples.

Results

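The genes described here encode surface proteins of myeloma cells, several of which are targets of antibodies or engineered T cells: SDC1, TNFRSF17, TNFRSF13B, GPRC5D, SLAMF7, FCRL5, CD27, CD28, CD47 and ITGA4. All probe sets that GEO's platform annotation assigns to exactly 1 gene symbol, one of these 10, were taken. This gave 28 probe sets of the 41097 with 1 symbol, and 10 genes of 19775. Transcripts were measured on 3 Affymetrix arrays of MM1S, a human line derived from multiple myeloma and grown in medium with serum. One group was untreated (labelled 0 h), and the others had been cultured with FK866 at 10 nM, one for 6 h and one for 24 h; each is a single array of a single line. FK866 inhibits NAMPT, the enzyme that recycles nicotinamide into NAD. No untreated array at 6 h or 24 h was among the arrays analysed, so the drug and time in culture cannot be told apart, and with 1 array per group no test was possible.

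Plasma cells and myeloma cells are recognised by SDC1, also called CD138, a syndecan that carries heparan sulfate chains. They depend for survival on the TNF ligands APRIL and BAFF, which bind TNFRSF17 (BCMA) and TNFRSF13B (TACI), and on contact with bone marrow stroma through integrins such as those built on ITGA4. TNFRSF17, GPRC5D, SLAMF7 and FCRL5 are used in the clinic as targets on myeloma cells, and CD47 is the signal by which cells hold off macrophages. The arrays measure transcripts only, so the amount of any of these proteins at the surface was not measured.

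Signals are given as deposited, in arbitrary units on a linear scale. For a difference, signals under 16 were set to 16 and log2 values subtracted, so a value of 1 is a 2-fold difference. Probe sets whose average log2 value across arrays fell short of the median of all probe sets, 4.26 or a signal of 19.1, were dropped. Each gene is represented by the brightest probe set left, and is then called measured. Of the 28 probe sets 22 were kept, and 9 of the 10 genes were measured; CD27 was not. The median gene of the 11883 measured differed from untreated cells by -0.10 at 6 h and -0.13 at 24 h, so an antigen near these values sits at the centre of all genes. Scaling moved this centre to 0.03 and 0.05 (quantile normalization) or 0.13 and 0.12 (centring on array medians). A scaled value is therefore to be read against its own centre, and a change of sign there need not be a change relative to other genes. How far probe sets for one gene disagreed was taken as the pooled SD of their log2 differences, 0.18 at 6 h and 0.20 at 24 h for genes whose mean log2 signal was 10 or more. It was 0.60 and 0.56 for genes under a log2 signal of 5. This spread covers probe error and transcript forms, not variation between cultures.

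All 9 measured antigen genes had a value within 2-fold of untreated cells at 6 h, and all but the very dim FCRL5 did at 24 h. At 6 h, 0 of 9 genes were at least 2-fold higher, where 1.44% of all measured genes were, and 0 of 9 at least 2-fold lower, where 3.32% were. At 24 h, 1 of 9 was at least 2-fold higher (FCRL5, background 1.14%) and 0 lower (background 4.17%). Between the treated arrays 0 were higher and 0 lower (backgrounds 1.09% and 1.84%). With so few genes these shares cannot be set apart from the background. The median difference of the 9 genes was -0.12 at 6 h and 0.00 at 24 h. The higher and lower backgrounds depended on scaling: quantile normalization gave 279 genes higher and 208 lower at 6 h in place of 171 and 395, and 288 and 264 at 24 h in place of 135 and 495. Centring on array medians gave 316 and 183 at 6 h, and 297 and 260 at 24 h.

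At a size of 1.5-fold, a few members came into view. ITGA4 was the only one of 9 lower at 6 h (background 11.4%), with 0 higher (5.71%). At 24 h GPRC5D was lower (background 14.2%) and FCRL5 higher (5.03%). Between the treated arrays ITGA4 and FCRL5 were higher at 24 h (background 5.34%) and 0 genes lower (7.92%). Counted by probe set, 0 of the 22 kept were 2-fold higher or lower at 6 h (backgrounds 1.36% and 4.32%) or between the treated arrays (1.14% and 1.96%). At 24 h 1 was higher, of FCRL5, and 1 lower, of CD47 (1.11% and 5.26%). Over all 22601 kept probe sets with 1 symbol, 53.2% were highest in untreated cells, 43.1% lowest at 24 h and 35.8% lowest at 6 h. Among the 22 antigen probe sets these shares were 50.0%, 36.4% and 40.9%. An array order named below is to be read against these shares.

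**Figure D1:**
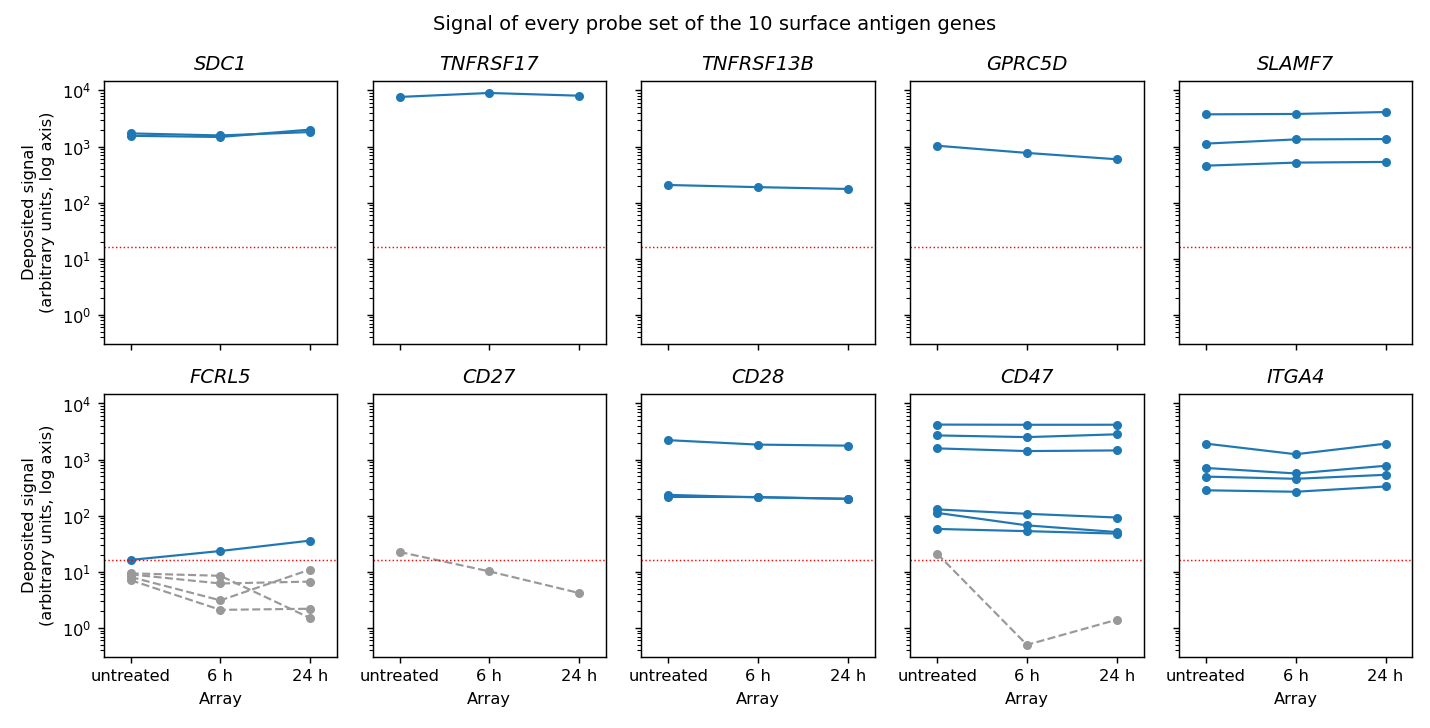
Deposited signal (arbitrary units, log axis) of all 28 probe sets of the 10 genes in the untreated, 6 h and 24 h arrays. Each line joins the values of 1 probe set; blue lines were kept, dashed grey lines were not, and the dotted red line is the floor of 16. Most kept lines are close to flat, GPRC5D declines from 1034.8 to 593.9, ITGA4 dips at 6 h, and CD27 and 4 of 5 FCRL5 lines end below the floor.

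SDC1 (NCBI gene 6382), the syndecan that defines plasma cells, differed from untreated cells by little. Its brighter probe set had a signal of 1716.9 untreated, 1578.2 after 6 h and 1816.9 after 24 h. Its second probe set had 1554.4, 1482.1 and 2005.2. Both were lowest at 6 h and highest at 24 h, although the differences were small. At 6 h they lay at -0.12 and -0.07, next to the median gene. With arrays centred on their medians the first turned positive (0.11), still next to the median gene of 0.13. At 24 h they lay at 0.08 and 0.37, above the median gene, and 73.5% of all measured genes had a lower difference than the first.

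The genes that build, trim and release heparan sulfate on SDC1 had medians at the median gene, with EXT1 lower by far. Of 23 listed genes 21 were measured, with medians of -0.09 at 6 h and -0.13 at 24 h, and 0 were at least 2-fold higher. EXT1 is a glycosyltransferase that polymerises the heparan sulfate chain together with EXT2. EXT1 had a signal of 301.3 untreated, 91.5 after 6 h and 67.9 after 24 h, which is 3.29-fold and 4.44-fold lower. Its other kept probe set was also lower, at -1.33 and -1.38, and EXT1 was at least 2-fold lower under all 8 alternatives at both times. EXT2 differed by 0.07 and -0.03, with its second probe set at 0.65 and 0.40. EXTL3, a related glycosyltransferase, was dim and 1.92-fold lower at 24 h, with both probe sets between -0.94 and -0.90. XYLT1, which attaches the first sugar of the chain, had the highest value at 24 h, 0.65, and XYLT2 the highest at 6 h, 0.26. SULF1, an extracellular sulfatase, was lower at 6 h only, at -0.66 against -0.10 at 24 h, the latter positive after quantile normalization (0.04). Its relative SULF2 differed by -0.58 and -0.17. The protease ADAM10 differed by 0.01 and 0.03, but its other probe sets reached 0.57 and 0.62. Heparanase, HPSE, differed by -0.01 and 0.20, and its second probe set by 0.36 and 1.02. EXT2, EXTL3, SULF2, ADAM10 and HPSE were named after their values were seen.

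TNFRSF17 (gene 608), the receptor for APRIL and BAFF known as BCMA, was slightly higher in treated cells. Its only probe set had a signal of 7659.7 untreated, 9012.7 after 6 h and 8060.4 after 24 h. The 6 h array was the highest and the untreated array the lowest. The differences from untreated cells were 0.23 and 0.07, or 1.18-fold and 1.05-fold. Quantile normalization gave 0.38 and 0.26, and centring on array medians 0.46 and 0.32. The other alternatives left these values as they were, so they are no check on a bright gene with 1 probe set. At 6 h 82.6% of all measured genes had a lower difference than TNFRSF17. With a single probe set there is no second measure of it.

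TNFRSF13B (gene 23495), the related receptor TACI, was dimmer and near the median gene. Its only probe set had 206.6, 189.2 and 175.6 in the untreated, 6 h and 24 h arrays. The untreated array was the highest and the 24 h array the lowest, with differences of -0.13 and -0.23. Both turned positive when arrays were centred on their medians (0.10 and 0.01), where the median gene lay at 0.13 and 0.12. The order of the arrays thus differed from that of TNFRSF17, but each difference was smaller than the spread between probe sets at that level, 0.42 at both times.

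The ligands of these receptors and the enzymes behind them showed no 2-fold difference. Of 18 listed genes of the BAFF and APRIL system 12 were measured, with medians of -0.17 and -0.20 and 0 at least 2-fold different at either time. The APRIL gene, TNFSF13, had signals of 227.1, 144.7 and 166.7, highest in untreated cells and lower by 0.65 and 0.45 on the log2 scale. TNFSF13B, the gene of BAFF, was dim at 35.2, 56.1 and 32.4, and its 24 h difference of -0.12 was positive after quantile normalization (0.18). TNFRSF13C, the BAFF receptor, had signals of 2.4, 3.8 and 18.8 and was not measured. PSEN2, a catalytic subunit of the gamma-secretase that cleaves TNFRSF17 from the surface, had the highest value of the list at 24 h, 0.43, with its second kept probe set at 0.31. MAP3K14, the kinase of the non-canonical NF-kB pathway, differed by -0.23 and -0.45.

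CD27 (gene 939), a TNF receptor of memory B cells and plasma cells that is often lost in myeloma, was at the limit of what the arrays can show. Its only probe set had 22.6 untreated, 10.2 after 6 h and 4.2 after 24 h. Only the untreated array lay above the floor. Its mean log2 value of 4.17 fell just short of the 4.26 needed, and no fold is given. Its ligand CD70, also a surface protein of activated B cells, was brighter, with 486.0, 268.1 and 300.4. CD70 was highest in untreated cells, as 53.2% of all kept probe sets were, and 1.81-fold and 1.62-fold lower at 6 h and 24 h. Over the 8 alternatives it lay between -0.86 and -0.45, but with 1 probe set few of these could move it.

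GPRC5D (gene 55507), an orphan G protein-coupled receptor found on plasma cells and in hair follicles, showed a stepwise decline among the bright members. Its only probe set had a signal of 1034.8 untreated, 770.3 after 6 h and 593.9 after 24 h. The differences were -0.43 and -0.80, or 1.34-fold and 1.74-fold lower, and the 24 h array was 1.30-fold lower than the 6 h array. Under the alternatives the 24 h difference ran from -0.80 to -0.55, always negative and never 2-fold. With 1 bright probe set only scaling could move it much. Quantile normalization gave -0.64 and centring on array medians -0.55. Of the 5530 bright genes, those whose mean log2 signal reached 8, 164 had a lower 24 h difference than GPRC5D, or 2.97%, and 536, or 9.69%, at 6 h. The spread between probe sets of genes with a mean log2 signal from 8 to under 10 was 0.28 at 6 h and 0.29 at 24 h. The 24 h difference was larger than this with either scaling. The 6 h difference was -0.20 with centring on array medians, inside it, where the median gene lay at 0.13.

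SLAMF7 (gene 57823), a SLAM family receptor of plasma and NK cells, was higher in treated cells in each of its 3 probe sets, by small amounts. The brightest had 3752.0 untreated, 3808.7 after 6 h and 4125.3 after 24 h. The second had 1130.1, 1341.6 and 1359.6, and the third 456.7, 517.7 and 532.3. In all 3 the untreated array was the lowest and the 24 h array the highest. The differences ran from 0.02 to 0.25 at 6 h and from 0.14 to 0.27 at 24 h. Of 1587 genes with 3 kept probe sets, 3.97% had the untreated array lowest in all 3 and 3.65% the 24 h array highest in all 3.

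Relatives of SLAMF7 and their adaptors lay above the median gene at 24 h more often than below it. Several did so on dim, discordant or near-median values, and with so few genes this was not tested. Of 14 listed genes 9 were measured, 7 of them above the median gene at each time, with list medians of 0.00 at 6 h and 0.44 at 24 h and 0 genes at least 2-fold different. CD48, a SLAM receptor anchored in the membrane by lipid, had 3062.3, 2994.0 and 4777.2, highest at 24 h at 1.56-fold, but its second probe set differed by 0.09. SLAMF6 was dim, at 32.9, 58.7 and 52.0. PTPN6, the phosphatase SHP-1, had 358.3, 310.6 and 484.9 and was likewise highest at 24 h. The inositol phosphatase INPP5D was also positive at 24 h (0.50). LY9 differed by 0.23, but its 3 probe sets ran from -0.23 to 0.28. SH2D1A lay under the floor in untreated cells and at 6 h (3.8, 13.8 and 29.1). It passed the filter only through its 24 h signal, and it counts among the 7 at each time. INPP5D, LY9 and SH2D1A were named after their values were seen. CD84, another SLAM receptor, was the lowest at 24 h (-0.49). FYN, a kinase recruited by SLAM adaptors, had 233.9, 288.8 and 215.8 and was the lowest of the list between the treated arrays, at -0.42. FYN counts among the 7 at 24 h with a difference of -0.12, next to the median gene of -0.13. The list median at 24 h was 0.00 with a floor of 64 and 0.07 with no filter (14 genes). Without probe sets that may cross-hybridise it was 0.22, from 4 genes.

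FCRL5 (gene 83416), an Fc receptor-like protein of B and plasma cells, was barely detected, and its single 2-fold value came from 1 dim probe set. That probe set had 16.3 untreated, 23.5 after 6 h and 36.0 after 24 h. It was lowest in untreated cells, just above the floor, and its 24 h difference of 1.14 was 2.21-fold. The other 4 probe sets lay under the floor on all 3 arrays. The difference was 0.49 with log2(signal + 32) and 0.00 with a floor of 64, and the gene was not measured without probe sets that may cross-hybridise or with the filter at the 75th percentile. The spread between probe sets at this level was 0.56. Among 5523 bright genes that were no members, the nearest to the 6 h and 24 h differences of FCRL5 were LCORL, DEPTOR and MAP3K5, at distances of 0.08, 0.09 and 0.10 on the log2 scale. This likeness rests on 2 differences that share the untreated array.

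Other Fc receptor-like and GPRC5 genes were few and dim. Of 10 listed 4 were measured, with 0 above the median gene at 24 h and medians of -0.36 and -0.45. FCRLA, an intracellular relative in B cells, had 213.5, 156.1 and 151.1, and FCRLB 54.9, 36.0 and 41.3, both highest in untreated cells. GPRC5C, a relative of GPRC5D, was near the floor at 20.2, 22.7 and 17.3.

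**Figure D2:**
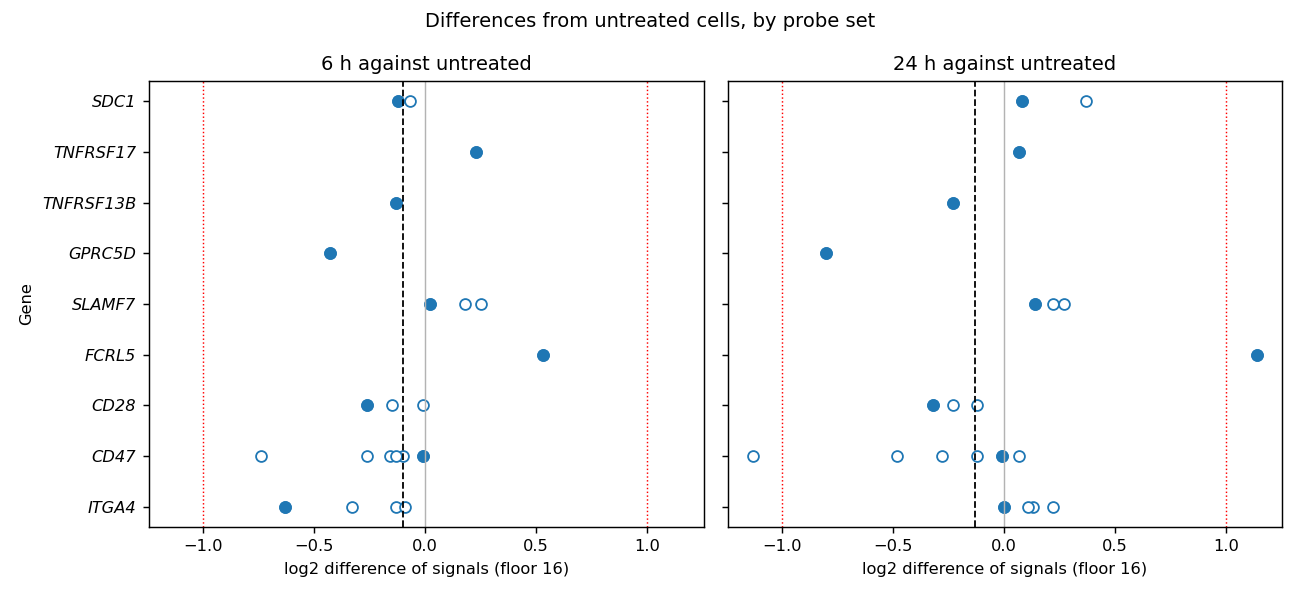
Log2 difference of each kept probe set from untreated cells at 6 h (left) and 24 h (right), 1 row per measured gene. Filled points are the probe set that gives the gene its value, open points its other kept probe sets; the dashed line is the median of all genes and dotted lines mark 2-fold. FCRL5 and 1 CD47 probe set are the only points past 2-fold, both at 24 h, and the CD47 points spread widest at 24 h.

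CD28 (gene 940), the costimulatory receptor of T cells that myeloma cells also carry, was slightly lower in treated cells. Its brightest probe set had 2217.9 untreated, 1848.8 after 6 h and 1771.6 after 24 h. The other two had 235.2, 212.3 and 200.2, and 216.2, 215.4 and 199.6. In all 3 the untreated array was the highest and the 24 h array the lowest. The brightest differed by -0.26 and -0.32 and stayed negative under all 8 alternatives. Relative to the median gene these values were -0.16 and -0.20. Centring on array medians gave -0.03 and -0.08, where the median gene lay at 0.13 and 0.12. Of 1587 genes with 3 kept probe sets, 25.8% had the untreated array highest in all 3 and 17.2% the 24 h array lowest in all 3. The share of genes with both was not counted.

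Of the CD28 and CD27 family, their ligands and adaptors, 10 of 17 listed genes were measured, with medians of 0.06 and -0.09. CD86, a ligand of CD28, had 250.0, 288.0 and 259.8 and differed by 0.20 and 0.06, with other probe sets reaching 1.08 at 6 h. CD80, the other ligand, had 2.0, 21.5 and 13.4 and was not measured. PIK3CD, a catalytic subunit of PI3 kinase, was the only gene of the list at least 2-fold higher, 3.03-fold at 6 h and 2.20-fold at 24 h, from a signal of 16.1. It was not 2-fold higher with a floor of 64 or with log2(signal + 32). VAV1, an exchange factor downstream of CD28, had 553.6, 580.8 and 903.8 and was 1.63-fold higher at 24 h.

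CD47 (gene 961), the ligand of SIRPA on macrophages, was nearly even across arrays by its bright probe sets, while its dim ones were lower in treated cells. The brightest had a signal of 4205.1 untreated, 4170.7 after 6 h and 4178.2 after 24 h. The second had 2694.8, 2514.9 and 2821.5, and the third 1582.9, 1418.1 and 1456.2. The 3 arrays lay within 1.12-fold of each other in each of these. The fourth to sixth had signals of 129.4, 108.1 and 92.9, of 112.3, 67.3 and 51.2, and of 58.1, 53.1 and 48.0. All 3 were highest in untreated cells and lowest at 24 h, and the fifth differed by -1.13 at 24 h, or 2.19-fold lower. A seventh probe set had 21.0 in untreated cells and under 2 in treated cells (0.5 and 1.4) and was not kept. The mean over probe sets therefore gave CD47 -0.23 and -0.33 where its brightest gave -0.01 and -0.01. With centring on array medians the brightest gave 0.22 and 0.24, where the median gene lay at 0.13 and 0.12. Across 763 genes whose brightest probe set had a mean log2 signal of at least 10, dim kept probe sets (5 to under 8) had a median difference of -0.30 at 24 h, against -0.15 for the brightest. Of these 1077 dim probe sets 9.10% were at least 2-fold lower.

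Of 9 listed partners and maturation genes of CD47, 6 were measured, with medians of -0.05 and -0.26. At 24 h 2 of the 6 lay above the median gene. THBS1, the secreted ligand thrombospondin, was dim, with 66.6, 22.2 and 11.4, 3.00-fold lower at 6 h and at least 4.16-fold lower at 24 h, where it lay under the floor. Its second kept probe set differed by -0.28 and -0.51, and a floor of 64, or leaving out probe sets that may cross-hybridise, left THBS1 short of 2-fold at both times. At 6 h THBS1 also fell short with log2(signal + 32) and by the mean over probe sets. Thus 3 of 7 alternatives gave 2-fold at 6 h and 5 of 7 at 24 h. SIRPA, the receptor, had 85.5, 110.2 and 104.0, with its second kept probe set at -0.47 and -0.69 where the first gave 0.37 and 0.28. QPCT, an enzyme that forms N-terminal pyroglutamate, had 8523.1, 6812.0 and 7310.8. Its relative QPCTL, named after its values were seen, was dim and under the floor at 24 h (24.8, 26.0 and 4.4). The ubiquilin UBQLN1 differed by -0.16 and -0.29. UBQLN2 differed by 0.38 and 0.19, but its second probe set by -0.28 and -0.48.

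ITGA4 (gene 3676), the alpha subunit that pairs with ITGB1 or ITGB7 to bind VCAM1 and fibronectin, was lowest at 6 h in each of its 4 probe sets and close to or above its untreated level at 24 h. The brightest had 1924.1 untreated, 1245.3 after 6 h and 1921.4 after 24 h. The second had 709.2, 565.9 and 775.8, the third 497.7, 454.8 and 535.6, and the fourth 283.8, 267.3 and 331.6. The 6 h differences were -0.63, -0.33, -0.13 and -0.09, so the size rested on the brightest probe set, and the mean over probe sets was -0.29. From 6 h to 24 h the differences were 0.63, 0.46, 0.24 and 0.31, all above the median gene of -0.03. By its brightest probe set, 99.2% of the 5530 bright genes had a lower difference between the treated arrays. Of 685 genes with 4 kept probe sets, 5.11% had the 6 h array lowest in all 4.

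Among the subunits that pair with ITGA4, ITGB7 was also lowest at 6 h, by less, and ITGB1 was highest there. ITGB7 had 10409.2, 9722.2 and 9887.0, with differences of -0.10 and -0.07. ITGB1 had 3405.2, 3499.5 and 3190.2, with differences of 0.04 and -0.09. All but the first ITGB1 value changed sign under centring on array medians. Of 30 listed integrin subunits and adhesion adaptors 21 were measured, with medians of -0.03 and -0.07. ILK, a kinase-like adaptor of integrins, had the same order of arrays as ITGA4, with 112.8, 64.1 and 111.7. ITGAM was dim (24.7, 41.2 and 25.2) and its second probe set differed by -0.66 at 6 h where the first gave 0.74. ITGA8 was the highest of the list at 24 h among genes above the floor, with 809.8, 1088.3 and 1366.7, and its 3 kept probe sets lay between 0.60 and 0.86. ITGAV, another integrin subunit, had 1059.2, 852.6 and 533.2 in its only probe set, 1.99-fold lower at 24 h. It was named after its values were seen. FN1, the gene of the ITGA4 ligand fibronectin, was the only one of the list at least 2-fold lower at 24 h. It had 798.2 untreated, 675.3 after 6 h and 203.1 after 24 h, or 3.93-fold lower at 24 h, and its 6 kept probe sets lay between -2.30 and -0.58. FN1 stayed at least 2-fold lower at 24 h under all 8 alternatives, but its size and timing did not hold. Without probe sets that may cross-hybridise it was -1.06 at 6 h and -1.06 at 24 h, with 0.00 between the treated arrays in place of -1.73.

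**Figure D3:**
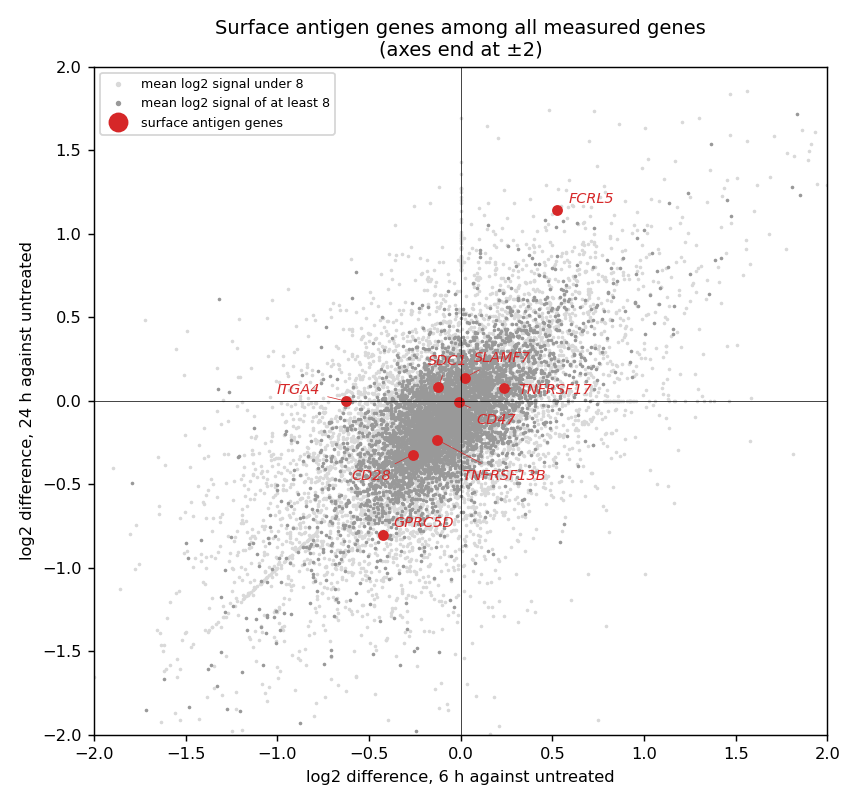
Log2 difference from untreated cells at 6 h (horizontal) against that at 24 h (vertical) for all 11883 measured genes, with points darker from a mean log2 signal of 8 up, with the 9 measured surface antigen genes in red. Axes end at 2 in each direction, which leaves 46 genes outside. FCRL5 lies highest of the 9 on the 24 h axis and GPRC5D lowest, ITGA4 to the left at a 24 h difference of 0.00, and the other 6 near the centre; both axes share the untreated array.

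Other surface antigens of B and plasma cells were centred on the median gene, and 2 of them were at least 2-fold lower. Of 50 listed genes 40 were measured, with medians of -0.10 and -0.15, 0 at least 2-fold higher, 1 at least 2-fold lower at 6 h and 2 at 24 h. CXCR4, the chemokine receptor that holds plasma cells in the marrow, had a signal of 3030.5 untreated, 2413.4 after 6 h and 1013.1 after 24 h. It was 2.99-fold lower at 24 h, with 3 probe sets between -1.58 and -1.45, and remained at least 2-fold lower under all 8 alternatives. CD55, which protects cells from complement, had 617.3, 253.5 and 305.4, or 2.44-fold and 2.02-fold lower. Its other probe sets were less so (up to -0.34 and -0.38), and CD55 was not 2-fold lower at either time by the mean over probe sets or without probe sets that may cross-hybridise. At 24 h it also fell short with quantile normalization, centring and log2(signal + 32), so 3 of 8 alternatives gave 2-fold. CD38, a NAD-consuming surface enzyme and antibody target, had 575.0, 613.7 and 422.6 and was lowest at 24 h, at -0.44. CCR1, a chemokine receptor, differed by -0.46 at 6 h and -0.13 at 24 h, the latter positive after quantile normalization (0.06). IGF1R was the highest of the list at 6 h (0.59), and its other kept probe sets reached 1.21. ICAM2, an adhesion molecule, was the highest at 24 h (0.57), with its second probe set at 0.06.

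In all, 123 of 171 genes of the 8 related lists were measured. At 6 h 1 was at least 2-fold higher and 3 lower, and at 24 h 1 higher and 5 lower, with medians of -0.09 and -0.13, which are close to the median gene of -0.10 and -0.13. Over all measured genes 1.44% were higher and 3.32% lower at 6 h, and 1.14% and 4.17% at 24 h. Counts this small cannot be set apart from these backgrounds, and the backgrounds depended on scaling. With quantile normalization 4 of 124 related genes were at least 2-fold lower at 24 h, where 264 of all 11912 measured genes were. At 24 h the 5 were EXT1, THBS1, FN1, CXCR4 and CD55. The chemokine receptor CXCR4, the heparan sulfate polymerase EXT1 and the matrix protein FN1 were the 3 that stayed at least 2-fold lower at 24 h under all 8 alternatives.

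**Figure D4:**
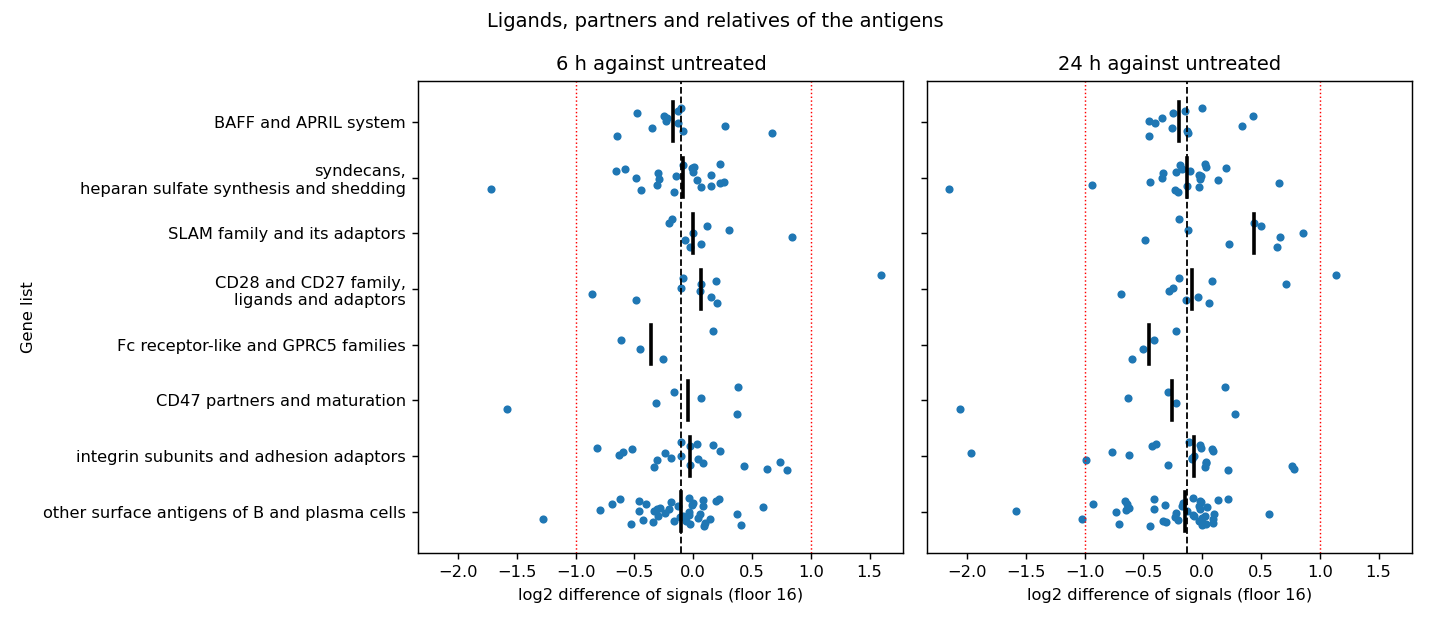
Log2 difference from untreated cells at 6 h (left) and 24 h (right) of the measured genes of 8 lists of ligands, partners and relatives of the antigens. Each point is a gene, black bars are list medians, the dashed line is the median of all genes and dotted lines mark 2-fold. EXT1, THBS1, FN1 and CXCR4 stand furthest left at 24 h, and the SLAM family median of 0.44 furthest right.

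The arrays carried the markers of plasma cells and few others. All 10 plasma cell markers had a log2 signal of at least 8 on each array, with a median of 4461.9 untreated, 4189.3 after 6 h and 4682.5 after 24 h. XBP1, the transcription factor of the secretory programme, had 8109.6, 5510.7 and 4694.7, the lowest difference of that list, and IRF4, a survival factor of myeloma cells, had 1698.1, 2029.6 and 3225.6, the highest. The part of these marker differences in the values of the antigens was not tested. Of 14 T and NK cell markers with a probe set, which matter because those cells also carry CD27, CD28 and SLAMF7, 0 reached that level on any array and 7 lay under the floor on all 3. The summed signal of that list was 195 untreated, 145 after 6 h and 156 after 24 h. Its 2 measured genes differed in direction. GNLY had 28.5, 48.5 and 37.7, above the floor throughout, but its second kept probe set differed by -0.53 and 0.15. PRF1 had 33.7 untreated, was near or under the floor in treated cells, and was 2.11-fold lower at both times. PRF1 fell short of 2-fold with quantile normalization, centring, a floor of 64 or log2(signal + 32). Of 13 myeloid and stroma markers 0 reached it and 8 lay under the floor throughout, with sums of 356, 320.0 and 270.0. Among 5 B cell markers PAX5 and MS4A1 were near or under the floor. Of the 3 measured, BACH2 and BCL6 were at least 2-fold lower at both times (backgrounds 3.32% and 4.17%). Counts this small cannot be set apart from the backgrounds. BACH2 had 269.1, 102.7 and 134.5, with its second kept probe set at -1.32 and -1.71. At 24 h BACH2 fell short of 2-fold with quantile normalization, centring or log2(signal + 32). BCL6 was near or under the floor in treated cells (13.1 and 20.3) and fell short with a floor of 64, and at 24 h also with log2(signal + 32). CIITA had 54.7, 61.2 and 64.8, with differences of 0.16 and 0.24, but its second kept probe set differed by -0.15 and -0.68.

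**Figure D5:**
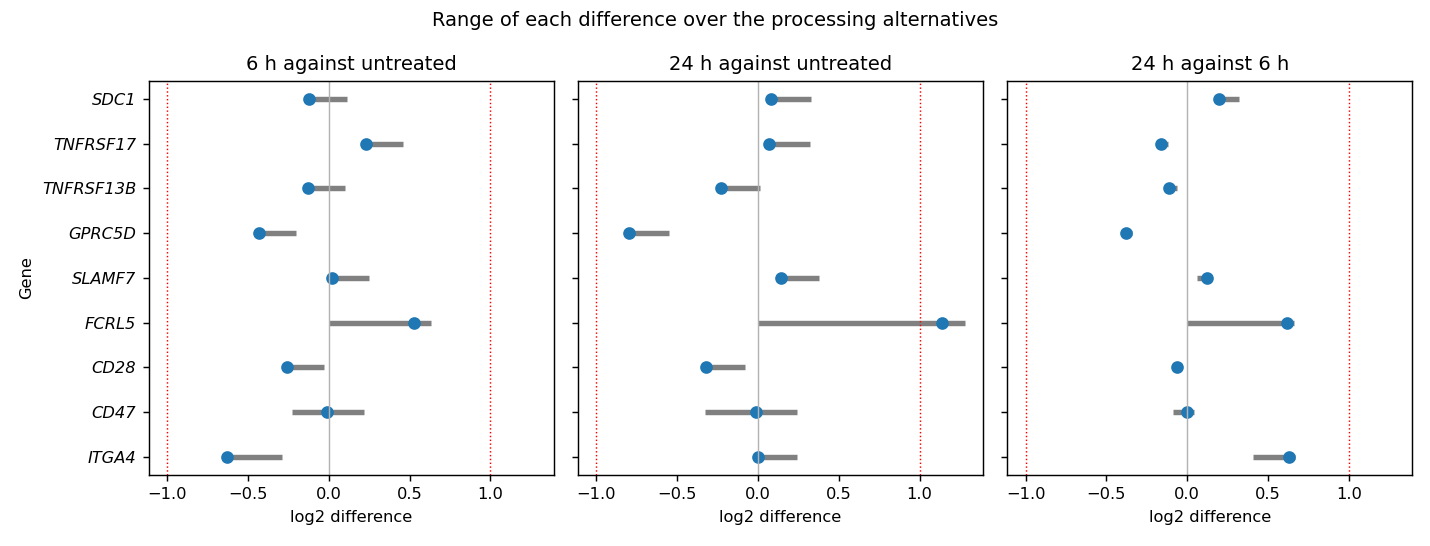
Log2 difference of the 9 measured surface antigen genes in the 3 comparisons. Blue points are the values reported above, grey bars run from the lowest to the highest value over the reported setting and up to 8 processing alternatives, and dotted lines mark 2-fold. GPRC5D stays below 0 and TNFRSF17 above 0 against untreated cells, ITGA4 stays above 0 between the treated arrays, and the FCRL5 bar reaches from 0.00 to past 2-fold at 24 h.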

How the data were processed

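The deposited table gives 1 intensity per probe set and array, on a linear scale from 0.1 to 20257.9; biotin-labelled cRNA for Affymetrix arrays was prepared from total RNA, per the labels' protocols. Summarisation, background correction and scaling are not given in the sources used here. Median intensities were 20.4, 17.4 and 17.2 in the untreated, 6 h and 24 h arrays, and 3 arrays limit the precision. Of 54675 probe sets, 62 controls were left out, 1801 had several symbols and 11777 none; symbols come from GEO's platform annotation and matched RefSeq by gene identifier without changes. No coordinates are given because no build is named.

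Members and lists were chosen with earlier results of these data known. Every member was named; of each list, the highest and lowest gene per comparison among those above the floor, genes at least 2-fold different from untreated cells, and direct partners, unless stated. For a 2-fold member, the 3 nearest bright genes by Euclidean distance were named. Alternatives were quantile normalization, centring on array medians, a floor of 64, log2(signal + 32), no filter, a filter at the 75th percentile, the mean over probe sets, leaving out probe sets that may cross-hybridise, and 1.5-fold. The procedure was checked on simulated data. Python 3.11.15, numpy 2.4.6, pandas 2.3.3 and matplotlib 3.10.9 were used.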

Additional observations from a re-analysis of the deposited data

How the results depend on the processing

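Of 617 values recomputed 536 moved by less than the spread between probe sets or stayed within 1.5 times the count. For list medians this spread was that over all genes, 0.38 at 6 h and 24 h and 0.34 between the treated arrays. A list median could thus change sign and still count among the 536. Many settings could not move bright genes, so this share does not measure how firm the values are. The only antigen difference of at least 2-fold, FCRL5 at 24 h, kept its sign, but a higher floor or an added constant could only shrink it. Small differences did change sign. With centring SDC1 was 0.11, TNFRSF13B 0.10 and CD47 0.22 at 6 h, and the median of the BAFF and APRIL list was 0.05. The median gene then lay at 0.13. FCRL5 was the only antigen past 2-fold at 24 h, and the count of 1 was 0 with a floor of 64, log2(signal + 32), the filter at the 75th percentile, or without probe sets that may cross-hybridise. At 1.5-fold, antigens lower numbered 1 at 6 h and 1 at 24 h, and 2 were higher between the treated arrays. Kept antigen probe sets numbered 12 in place of 22 without those that may cross-hybridise.

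Of the 8 related lists, genes higher at 6 h numbered 1 as reported, 2 with quantile normalization, centring or without cross-hybridising probe sets, 0 with a floor of 64, log2(signal + 32) or the 75th percentile filter, and 7 at 1.5-fold. Genes lower at 6 h numbered 1 in place of 3 by the mean over probe sets and 13 at 1.5-fold. At 24 h, genes higher numbered 2 with centring or without cross-hybridising probe sets, 0 with a floor of 64, log2(signal + 32) or the 75th percentile filter, and 8 at 1.5-fold. Genes lower at 24 h numbered 3 in place of 5 without cross-hybridising probe sets and 19 at 1.5-fold. Between the treated arrays 7 were higher and 9 lower at 1.5-fold. With a floor of 64 the 24 h medians of the SLAM and Fc receptor-like lists were 0, and with the 75th percentile filter the myeloid list's median between treated arrays was -0.33, from 1 gene.

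Counts over all genes, given in the order quantile normalization, centring, floor of 64, log2(signal + 32), 75th percentile filter and 1.5-fold, were 279, 316, 49, 43, 43 and 679 higher at 6 h, and 208, 183, 115, 93, 93 and 1350 lower. At 24 h they were 288, 297, 36, 26, 32 and 598 higher, and 264, 260, 161, 164, 130 and 1682 lower. Between the treated arrays the last 4 gave 20, 20, 16 and 635 higher, and 49, 49, 46 and 941 lower. Floors, the constant and the stricter filter remove or shrink dim genes by construction; the cause of the other shifts was not tested.

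No paired analysis was possible because each group has 1 array. Leaving out an array was not possible for the same reason. Signals near the floor, as of FCRL5 and CD27, limit what these arrays can show.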
